A study of Mus musculus with 24 samples.

Results

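Resting CD4+ T cells that had been primed with 0.5 µM I-BET-762 were compared with resting cells primed with 0.25 µM of the same compound, on 3 arrays per concentration. These 6 arrays were chosen by their labels out of the 24 arrays of the study, and all 18193 genes with a single-symbol probe set entered the comparison. Both groups were C57BL/6 cells from mice with the 2D2 transgenic T cell receptor, and both had been activated on plates coated with antibodies to CD3 and CD28 under Th1 conditions. Cells left the plates after 48 h, were expanded for another 2 days and were then lysed without a second stimulation, which is what resting means here. The 6 resting control arrays, 3 with the solvent DMSO and 3 with the compound Control-768, had the same history. Activated cells, used below to set the same dose step beside, received a further 4 h on the antibodies and comprised 3 arrays at 0.5 µM and 3 at 0.25 µM. The arrays carry replicate numbers 1 to 3 in each group. The labels do not say whether a number stands for a separate animal or culture. The p-values rest on the spread left among all 24 arrays once group means and replicate numbers are taken out. They do not measure a known spread between animals or cultures. The concentration of Control-768, and whether the compounds were still present during expansion, were not stated in the sources used here.

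I-BET-762 blocks the acetyl-lysine pockets of the BET family, whose members, such as Brd2 and Brd3, bind acetylated histones and help recruit the elongation factor P-TEFb to promoters and enhancers. Genes that depend on large clusters of acetylated enhancers often lose transcription when BET proteins are displaced, while other genes rise. In Th1 cells such enhancers lie at genes for cytokines, chemokine receptors and lineage factors. Comparing 2 concentrations asks which genes move further between 0.25 and 0.5 µM and which do not.

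Values are probe set intensities, with levels compared for 1 gene at a time and never between genes. Array medians of the 12 resting arrays lay between 37.4 and 44.4, and 29.1% to 30.8% of probe sets were under an intensity of 16. The highest median, 44.4, was that of array 3 at 0.5 µM, and the next was 40.9 on array 3 of DMSO. The log2 ratio of the 3′ to the 5′ Gapdh control probe set lay between -0.06 and 0.09 on these arrays. Markers of CD4 T cells were bright: the 7 measured of 9 listed summed to between 32700 and 39030 at 0.5 µM and between 30330 and 32780 at 0.25 µM. Of the B cell list, 6 of the 7 measured genes stayed under 50 on all 6 arrays. The remaining one, Ighm (the IgM heavy chain), averaged 2726 at 0.5 µM and 2885 at 0.25 µM. The 11 measured myeloid markers summed to between 304 and 371 at 0.5 µM and between 302 and 316 at 0.25 µM. Of the dendritic cell and MHC class II list, H2-Ab1 alone was above 1000, with means of 1456 at 0.5 µM and 1602 at 0.25 µM. The 2 CD8 markers summed to between 527 and 599.8 at 0.5 µM and between 458 and 632 at 0.25 µM. The 3 NK markers summed to between 384 and 1450 at 0.5 µM and between 450.2 and 746 at 0.25 µM, and the 4 erythroid markers to under 50 on each array. None of the genes on the marker lists passed the test between the concentrations.

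Doubling the concentration moved 211 of 18193 genes past the threshold, an adjusted p under 0.05 in limma, which is 1.16% of the genes tested; 2536 (13.9%) had an unadjusted p under 0.05. Of the 211 genes, 59 were higher at 0.5 µM (0.324%) and 152 were lower (0.835%). Each count of called genes on a list below is to be read beside these shares. The falls were also the deeper changes: 56 of the lower genes and 14 of the higher genes differed by at least 2-fold. Surface receptors, actin-binding proteins and enzymes of amino acid supply stood among the largest falls. Inhibitory receptors, Il10, Ccl5 and several transcription factors stood among the largest rises. In bulk RNA, fewer cells of a kind and less RNA per cell cannot be told apart.

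All 211 genes had the same sign in each of the 3 pairs of equally numbered arrays, as did 6116 of 18193 genes overall (33.6%); the model is blocked on these pairs, so the calls favour it. The arrays of the 2 concentrations did not overlap in 42 of the 59 higher genes and in 91 of the 152 lower genes, against 1957 of all genes (10.8%), and the calls favour this as well. Their median log2 change was 0.64 for the higher and -0.86 for the lower genes, against 0.01 over all genes. Pair 3 stood apart from the others. The SD of its 0.5 minus 0.25 µM differences over all genes was 0.53, against 0.30 in pair 1 and 0.28 in pair 2, and its median in the lower genes was -1.10, against -0.75 in pair 1 and -0.67 in pair 2. The part of pair 3 in the size of single changes can be read from the plot of pair differences. The count of genes past the threshold depended on single arrays. It was 74, 444 and 111 without array 1, 2 or 3 of the 0.5 µM group, and 157, 96 and 43 without array 1, 2 or 3 of the 0.25 µM group. Of the 30 largest rises and falls, 14 passed in each of these 6 fits: Ifi209, Klf3, Ccl5, Lag3, Chst2 and Gata3 among the rises, and Procr, Shroom3, Cysltr1, Fcmr, Rapgef5, Trat1, Eps8 and Igfbp4 among the falls. Without all arrays of number 3, 5 of the 15 largest rises and 13 of the 15 largest falls passed. Ifi209, Chst2 and Gata3 then lost the call (limma, adjusted p = 0.0773, 0.062 and 0.144). Without the replicate block, 12 genes passed, 7 of them named below (Cysltr1, Eps8, Fcmr, Igfbp4, Klf3, Lag3 and Trat1). The called genes chosen for naming had 80 other probe sets, of which 29 passed over all probe sets in the direction reported. A further 14, of 12 genes (Bcat1, Chst2, Dpp4, Ears2, Enah, Klf3, Mycn, Myh11, Prf1, Spire1, Vcl and Xpot), lay on the other side of 0, and none of the 14 passed that threshold.

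**Figure D1:**
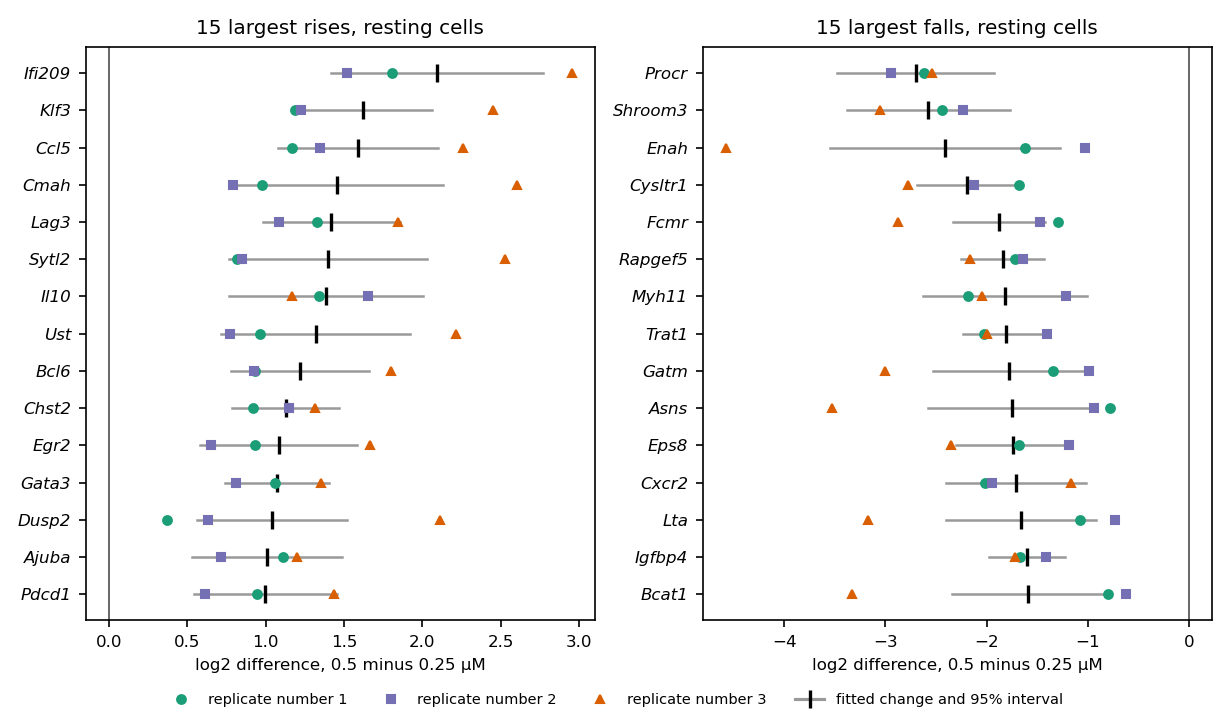
Log2 difference in intensity, 0.5 minus 0.25 µM I-BET-762, of the 15 largest rises (left) and 15 largest falls (right) in resting cells; each symbol is 1 pair of equally numbered arrays, the black tick the fitted change and the grey line its 95% interval. All points lie on 1 side of 0 for each gene, and pair 3 lies far out for Enah, Asns, Bcat1 and Lta (-4.58, -3.53, -3.33 and -3.17). Among the rises, pair 3 is farthest out for Ifi209, Cmah and Sytl2 (2.95, 2.60 and 2.53).

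Several receptors and their partners at the cell surface fell. Procr, the endothelial protein C receptor, had intensities of 26.0, 44.8 and 13.5 at 0.5 µM, against 243, 451 and 155 at 0.25 µM (replicates 1, 2 and 3 throughout). It had the largest fall, with a log2 change of -2.70 ± 0.37 (SE; limma, adjusted p = 0.00169), and each 0.5 µM array lay below each 0.25 µM array. The 3 pairs lay close together, at -2.62, -2.94 and -2.54. Cysltr1, a receptor for cysteinyl leukotrienes, read 132, 170.2 and 78.1 at 0.5 µM and 455, 796 and 630.3 at 0.25 µM. Its log2 change was -2.19 ± 0.23 (limma, adjusted p = 0.000658), and a second probe set gave -2.20. There was again no overlap between the groups. Fcmr, which encodes the Fc receptor for IgM, read 53.3, 77.4 and 17.0 at 0.5 µM and 153, 243 and 226 at 0.25 µM, a log2 change of -1.88 ± 0.21 (limma, adjusted p = 0.000658). Trat1, a transmembrane adaptor of the T cell receptor complex, read 196, 272 and 182 at 0.5 µM, against 846, 744 and 775 at 0.25 µM. The log2 change of Trat1 was -1.81 ± 0.20 (limma, adjusted p = 0.000658). Both sets of arrays were fully separate for Fcmr and Trat1.

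Cxcr2, a receptor for neutrophil-attracting CXC chemokines, was dim at 0.5 µM with 11.2, 20.3 and 5.72, and read 93.7, 124 and 32.6 at 0.25 µM. The groups were separate and the log2 change was -1.71 ± 0.33 (limma, adjusted p = 0.0179). It passed in 2 of the 6 fits that left out a compared array, with an adjusted p of up to 0.128. F3, the tissue factor that starts the extrinsic clotting pathway, was at 4.15, 6.27 and 4.14 at 0.5 µM, against 23.9, 57.4 and 43.5 at 0.25 µM. With all 6 values near the added constant of 16, its log2 change of -1.42 ± 0.28 (limma, adjusted p = 0.0206) is compressed, and it passed in 2 of those 6 fits (adjusted p up to 0.191). The secreted proteins Igfbp4 and Serpinf1 fell as well. Igfbp4, which binds insulin-like growth factors and is bright in naive T cells, read 222, 248 and 174 at 0.5 µM and 744, 689 and 609.7 at 0.25 µM. The arrays of Igfbp4 did not overlap, its log2 change was -1.60 ± 0.18 (limma, adjusted p = 0.000658), and the 3 pairs lay between -1.41 and -1.72. Serpinf1, the pigment epithelium-derived factor, had a log2 change of -1.54 ± 0.19 (limma, adjusted p = 0.000957), with groups that overlapped because its level differed between replicate numbers: 47.0, 106 and 23.3 at 0.5 µM and 165, 427 and 76.4 at 0.25 µM.

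Genes for actin-binding and cell-shape proteins moved in both directions. Shroom3, which recruits myosin-activating kinase to actin at cell junctions, read 27.5, 95.2 and 10.6 at 0.5 µM, against 220.3, 507 and 205 at 0.25 µM. All 0.5 µM arrays were lower, and the log2 change was -2.58 ± 0.38 (limma, adjusted p = 0.00288). Eps8, an actin-capping and bundling protein, read 177, 264 and 86.4 at 0.5 µM and 604, 621 and 508 at 0.25 µM. Its log2 change was -1.74 ± 0.27 (limma, adjusted p = 0.00362), and 2 further probe sets fell past the threshold over all probe sets (-1.50 and -0.61). Enah, a promoter of actin filament growth, read 438, 741 and 46.7 at 0.5 µM, against 1383, 1531 and 1481 at 0.25 µM. The fitted change of Enah was -2.41 ± 0.54 (limma, adjusted p = 0.0401), but the pairs spread widely, at -1.62, -1.03 and -4.58, and it passed in 1 of the 6 fits without a compared array (adjusted p up to 0.329). Without all arrays of number 3 the log2 change was -1.33. Rapgef5, an activator of Rap GTPases, read 67.5, 97.8 and 21.7 at 0.5 µM and 258, 339 and 153 at 0.25 µM. The groups did not overlap, and the log2 change was -1.84 ± 0.19 (limma, adjusted p = 0.000658). Myh11, a smooth muscle myosin heavy chain, changed by -1.82 ± 0.38 (limma, adjusted p = 0.0315), with 0.5 µM values of 17.5, 40.6 and 2.57 against 137, 116 and 60.5 at 0.25 µM; it passed in 1 of those 6 fits (adjusted p up to 0.296). The other Myh11 probe set, with a mean of 12.7 on the resting arrays, gave 0.51.

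In the other direction, Vcl (vinculin, which couples integrins to actin) read 1120, 999.8 and 1308 at 0.5 µM and 632, 544 and 653 at 0.25 µM. Ajuba, a LIM protein of cell junctions, read 562, 325 and 560 at 0.5 µM, against 252, 191 and 234 at 0.25 µM. Neither gene's groups overlapped, with log2 changes of 0.89 ± 0.18 for Vcl (limma, adjusted p = 0.0286) and 1.01 ± 0.22 for Ajuba (limma, adjusted p = 0.0401). Each passed in 1 of the 6 fits that left out a compared array, with adjusted p up to 0.203 for Vcl and 0.226 for Ajuba. Itga4, the α4 integrin chain of VLA-4, read 2450, 2355 and 3448 at 0.5 µM, against 1618, 1585 and 1082 at 0.25 µM. The groups were separate, and the log2 change was 0.94 ± 0.21 (limma, adjusted p = 0.0367), with 2 of the 6 fits passing (adjusted p up to 0.312). It was the only one of 18 measured integrin and adhesion genes past the threshold, and the median of that list was 0.12. Of the 18 measured genes on the actin, junction and guidance list, 3 rose, 1 fell and the median was 0.14; Sema6d, a semaphorin, was not among them, at 71.3, 76.6 and 33.3 against 71.4, 37.3 and 32.8.

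Several enzymes that make amino acids or load them on tRNA fell. Asns, asparagine synthetase, read 1717, 1546 and 219 at 0.5 µM, against 2964, 2984 and 2689 at 0.25 µM. Each 0.5 µM array was lower than each 0.25 µM array. The log2 change was -1.75 ± 0.39 (limma, adjusted p = 0.0407), with pairs at -0.78, -0.94 and -3.53, so that the fall was deepest in number 3. Without all arrays of number 3 the change was -0.86, with an adjusted p of 0.021 in limma, while 4 of the 6 fits without a single compared array lost the call (adjusted p up to 0.353). Aldh18a1, which starts proline synthesis, read 1707, 1838 and 797 at 0.5 µM and 2175, 2454 and 1801 at 0.25 µM. The groups of Aldh18a1 overlapped at 1 value each, and the log2 change was -0.64 ± 0.13 (limma, adjusted p = 0.0232; 3 of 6 fits passing, adjusted p up to 0.216). All 4 of its other probe sets fell by between 0.60 and 0.68.

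Asns and Aldh18a1 were the 2 of 22 measured genes past the threshold on the list for the transcription factor ATF4 and the amino acid response, the program that cells switch on when amino acids run short. Among all genes, 0.835% fell past the threshold. The median log2 change of the 22 genes was -0.49, and 21 lay below 0, against 8818 of 18193 over all genes. By pair, the median was -0.30, -0.32 and -0.87. Relative to the controls the median of the list was 0.16 at 0.25 µM and -0.25 at 0.5 µM. Several genes of the same kind outside the list, chosen after their values were seen, passed too. They include 3 tRNA synthetase genes: Lars (leucyl) with a log2 change of -0.56, Iars (isoleucyl) with -0.41 and mitochondrial Ears2 (glutamyl) with -0.49. Xpot, the nuclear export receptor of tRNA, changed by -0.49, with limma adjusted p-values of these 4 genes between 0.0147 and 0.0465. They passed in 3, 1, 2 and 2 of the 6 fits without a compared array, with adjusted p up to 0.168, 0.376, 0.291 and 0.137. The fall of Ears2 rests on 1 probe set. Its other probe sets, with means of 12.2, 40.1 and 10.9 on the resting arrays, gave -0.07, -0.005 and 0.28. Bcat1, which transfers the amino group of branched-chain amino acids, read 531, 601.3 and 84.8 at 0.5 µM, against 937, 936 and 1000 at 0.25 µM. The change of Bcat1 was -1.59 ± 0.36 (limma, adjusted p = 0.042) with no overlap, but 2 other probe sets gave -0.21 and 0.13, so the fall rests on 1 probe set. It passed in 2 of the 6 fits (adjusted p up to 0.369).

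ATF4 acts with C/EBP-family partners on a composite site whose letters can be searched. Of the genes that passed, 8 lower genes and 1 higher gene had a window that holds this motif. Promoters are shown for 3 of the lower genes. They were picked by name and do not stand for the lower genes as a set. The motif was TGATGNAA on either strand, and the windows run from 250 bases before to 50 after the start in RefSeq (GRCm38.p6). Capitals mark the match, and each sequence reads along its gene's strand. Asns lies on the minus strand with its window at chr6:7693160-7693459, and the match begins 23 bases before the start. Atf3 is also on the minus strand, at chr1:191183284-191183583, with a match to the opposite strand that begins 110 bases before the start. Iars is on the plus strand, at chr13:49681880-49682179, with a match to the opposite strand that begins at base 8 of the transcript.
Asns: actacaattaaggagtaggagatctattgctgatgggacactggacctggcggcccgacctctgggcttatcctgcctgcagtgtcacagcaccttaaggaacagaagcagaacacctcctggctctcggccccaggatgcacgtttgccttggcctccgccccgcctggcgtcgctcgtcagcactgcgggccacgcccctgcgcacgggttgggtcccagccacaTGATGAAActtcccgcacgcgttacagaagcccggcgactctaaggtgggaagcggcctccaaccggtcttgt
Atf3: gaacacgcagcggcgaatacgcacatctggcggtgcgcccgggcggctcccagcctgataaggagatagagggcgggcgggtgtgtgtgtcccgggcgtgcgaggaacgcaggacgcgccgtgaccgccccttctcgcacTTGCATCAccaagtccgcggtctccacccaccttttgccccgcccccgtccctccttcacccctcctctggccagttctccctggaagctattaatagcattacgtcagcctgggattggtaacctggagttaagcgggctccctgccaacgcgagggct
Iars: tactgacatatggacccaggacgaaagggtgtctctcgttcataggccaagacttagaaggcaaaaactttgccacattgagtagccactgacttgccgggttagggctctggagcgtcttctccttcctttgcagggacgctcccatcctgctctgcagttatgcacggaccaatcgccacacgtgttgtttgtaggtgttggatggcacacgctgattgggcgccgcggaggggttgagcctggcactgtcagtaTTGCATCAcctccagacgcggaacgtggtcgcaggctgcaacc
The motif stood in 3.97% of all 32851 promoter windows and in 2.73% of the 18109 windows of measured genes. Among the windows of the genes that passed it stood in 8 of 168 for the lower genes (4.76%) and 1 of 68 for the higher genes (1.47%). A pair of other motifs was searched on both strands. The E-box CACGTG stood in 22 windows of the lower genes (13.1%) and 8 of the higher genes (11.8%), against 8.72% of the windows of measured genes. The AP-1 motif TGANTCA stood in 12 windows of the lower genes (7.14%) and 2 of the higher genes (2.94%), against 6.38%. On the ATF4 list, 20 of 22 genes had windows, and 6 of their 24 windows held TGATGNAA, a list that was itself drawn up from known ATF4 targets. The E-box and the AP-1 motif each stood in 2 of those 24 windows. A match describes letters in a window and does not show binding. Atf3, a stress-induced repressor of the same family, read 270, 268 and 156 at 0.5 µM, against 464, 492 and 628 at 0.25 µM. Its groups did not overlap, and the log2 change was -1.17 ± 0.20 (limma, adjusted p = 0.00873), which did not pass without array 3 of either concentration (adjusted p up to 0.0863).

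Cytokine and chemokine genes were split. Il10, the anti-inflammatory cytokine, read 2023, 788 and 952 at 0.5 µM and 790, 240.2 and 415 at 0.25 µM. Within each pair it was higher at 0.5 µM, by 1.34, 1.65 and 1.17 log2 units, although the groups overlapped by 1 array each. The fitted change was 1.39 ± 0.29 (limma, adjusted p = 0.0315), and the call held in 2 of 6 fits without a compared array (adjusted p up to 0.216). Lta, lymphotoxin alpha, read 1404, 1898 and 182 at 0.5 µM, against 2980, 3162 and 1768 at 0.25 µM, a log2 change of -1.66 ± 0.35 (limma, adjusted p = 0.0315). The groups overlapped, pair 3 carried the deepest fall at -3.17, and 1 of the 6 fits kept the call (adjusted p up to 0.296). Ebi3, the subunit shared by interleukins 27 and 35, read 215, 324 and 115 at 0.5 µM, against 482, 621 and 555 at 0.25 µM. Groups were separate, and the log2 change was -1.38 ± 0.19 (limma, adjusted p = 0.00169). These were the 3 of 23 measured cytokine genes past the threshold, where 1.16% of all genes passed. The median of that list was -0.21. Ifng, the defining Th1 cytokine, had 2343, 789 and 1636 at 0.5 µM and 1924, 545 and 1737 at 0.25 µM. The log2 change of Ifng was 0.24 ± 0.23 (limma, adjusted p = 0.701), with a 95% interval from -0.25 to 0.73 that holds 0. Il2 and Il17a were dim on all 6 arrays, between 7.43 and 34.8.

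Ccl5 (RANTES) read 1392, 1040 and 6459 at 0.5 µM, against 610.1, 399 and 1336 at 0.25 µM. The groups overlapped since number 3 was high at both concentrations, and the log2 change was 1.59 ± 0.24 (limma, adjusted p = 0.00361). It was the 1 of 21 measured chemokine and chemokine receptor genes on that list to pass. Ccl3 and Ccl4, which are also inflammatory CC chemokines, had log2 changes of 1.21 and 1.15, with limma adjusted p-values of 0.132 and 0.0772. In Ccl3 the 0.5 µM arrays read 719.8, 705 and 158, against 206, 189.5 and 147 at 0.25 µM. Number 3 was low for Ccl3 at 0.5 µM, and without all arrays of that number its change was 1.77 (limma, adjusted p = 0.044).

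Some inhibitory receptor genes and 2 cytotoxicity genes rose. Lag3, whose product inhibits T cells on contact with MHC class II, read 1938, 1268 and 2732 at 0.5 µM and 762, 590.2 and 749 at 0.25 µM. The groups were fully separate, and the log2 change was 1.42 ± 0.21 (limma, adjusted p = 0.0028). Pdcd1, the receptor PD-1, read 430, 419 and 611 at 0.5 µM, against 215, 268 and 216 at 0.25 µM. The same held for Pdcd1, with no overlap and a log2 change of 0.998 ± 0.21 (limma, adjusted p = 0.0342; 1 of 6 fits passing, adjusted p up to 0.174). Tox2, a factor induced with these receptors, changed by 0.97 ± 0.18 (limma, adjusted p = 0.0171), with 171, 79.7 and 135 against 91.8, 22.8 and 69.8. Its groups overlapped, and it passed in 3 of the 6 fits (adjusted p up to 0.108). Of 11 measured genes on the list of inhibitory receptors, which also holds Tox2, 3 rose and 0 fell. Over all genes, 0.324% rose and 0.835% fell. The median of the list was 0.42, and 4 of its genes lay below 0. By the fit without all arrays of number 3, 1 gene of the list rose, and by the fit without the replicate block also 1.

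Among 18 measured cytotoxicity and NK receptor genes, 2 rose, where 0.324% of all genes did: Prf1, the pore-forming protein perforin, and Nkg7, a granule membrane protein. Nkg7 read 5077, 4266 and 7099 at 0.5 µM, against 3518, 2607 and 4497 at 0.25 µM, a log2 change of 0.63 ± 0.10 (limma, adjusted p = 0.00603; 5 of 6 fits, adjusted p up to 0.0557 without array 3 of the 0.25 µM group). Prf1 read 346, 264 and 209 at 0.5 µM and 229, 169 and 74.6 at 0.25 µM, a log2 change of 0.82 ± 0.14 (limma, adjusted p = 0.00837). The groups of both genes overlapped, and each pair was higher at 0.5 µM. The Prf1 call was lost without array 3 of either concentration (adjusted p up to 0.0615), and the sign turned with the probe set chosen when multi-match sets were left out (-0.13). The median of the list was 0.09, against 0.01 over all genes, and 6 of its genes lay below 0. By the fit without all arrays of number 3, 0 genes of the list rose and 1 fell.

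Several transcription factors of T helper lineages passed the test, in both directions. Bcl6, the repressor that directs follicular helper T cells and a member of none of the lists, read 247, 187 and 1111 at 0.5 µM and 122, 90.8 and 307 at 0.25 µM. The level of number 3 was high at both concentrations, so the groups overlapped, while the 3 pairs had the same sign. Its log2 change was 1.22 ± 0.21 (limma, adjusted p = 0.0087), and it was lost without array 3 of the 0.25 µM group (adjusted p = 0.0885). Gata3, the Th2 factor, had 493, 292 and 1374 at 0.5 µM and 229, 159 and 528 at 0.25 µM, a log2 change of 1.07 ± 0.16 (limma, adjusted p = 0.0028). Gata3 was the 1 of 12 measured Th2 genes to pass, and the median of that list was 0.15. On it 5 genes lay below 0, where 8818 of 18193 genes did so among all genes. Tbx21, which encodes the Th1 factor T-bet, read 2188, 2026 and 2638 at 0.5 µM, against 1578, 1531 and 1656 at 0.25 µM. All 0.5 µM arrays were higher, and the log2 change was 0.51 ± 0.11 (limma, adjusted p = 0.0367; 1 of 6 fits, adjusted p up to 0.309). Hlx, a homeobox partner of T-bet, went the other way at 88.4, 117 and 101 against 153, 223 and 301.3, a log2 change of -0.997 ± 0.15 (limma, adjusted p = 0.00406). Its groups did not overlap, and the call was lost without array 3 of the 0.25 µM group (adjusted p = 0.0527). Tbx21 and Hlx were the 2 of 15 measured Th1 genes to pass (1.16% over all genes), with a list median of 0.08 and 3 genes below 0. Batf, an AP-1 factor that Th17 cells need, changed by 0.45 ± 0.09 with separate groups (limma, adjusted p = 0.0238; 2 of 6 fits, adjusted p up to 0.135). It was the 1 of 8 measured Th17 genes to pass, with a list median of 0.15 and 2 genes below 0. Maf, an activator of Il10 and Il4, missed the threshold at -0.57 (limma, adjusted p = 0.138), with pairs at -0.69, -1.03 and 0.02; without all arrays of number 3 the change was -0.86 and the adjusted p 0.036. Of its 5 other probe sets, 1 fell past the threshold over all probe sets (-0.71, limma, adjusted p = 0.0275), and the rest lay between -0.59 and 0.09.

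Genes of resting and naive T cells were among the rises and the falls. Klf3, a repressor of the Krüppel-like family, read 471, 372 and 480.1 at 0.5 µM, against 197, 149.5 and 74.7 at 0.25 µM. There was no overlap, and the log2 change was 1.62 ± 0.20 (limma, adjusted p = 0.0011). Of its 6 other probe sets, 1 rose past the threshold over all probe sets, by 1.04, and the rest lay between -0.20 and 0.35. Slfn2, which keeps T cells quiescent in mice, read 1145, 928 and 2119 at 0.5 µM, against 824, 727 and 861 at 0.25 µM. Each 0.5 µM array was higher, at a log2 change of 0.70 ± 0.16 (limma, adjusted p = 0.0458; 2 of 6 fits, adjusted p up to 0.391). Of 18 measured genes on the naive and quiescence list, Klf3 and Slfn2 rose and Igfbp4 fell, while 0.324% of all genes rose and 0.835% fell. The list had a median of 0.28 and 3 genes below 0, against 8818 of 18193 over all genes. By pair this median was 0.20, 0.10 and 0.65.

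Of the 23 measured genes induced by T cell receptor signals, Egr2 and Dusp2 rose and Atf3 fell, and the median was 0.15. Among all genes, 1.16% passed in either direction. Egr2, a zinc finger factor of anergy and exhaustion, read 1200, 884 and 1085 at 0.5 µM, against 622, 557 and 331 at 0.25 µM. Dusp2, a phosphatase that turns off MAP kinases, read 3249, 2280 and 2042 at 0.5 µM, against 2504, 1464 and 459 at 0.25 µM. The groups were separate for Egr2 and overlapped for Dusp2, where number 3 was low at 0.25 µM. Log2 changes were 1.08 ± 0.24 for Egr2 (limma, adjusted p = 0.0362) and 1.04 ± 0.22 for Dusp2 (limma, adjusted p = 0.0348). They passed in 1 and 3 of the 6 fits without a compared array, with adjusted p up to 0.273 and 0.311.

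The largest rise of all was Ifi209, a PYHIN family gene induced by interferon, with 860, 393 and 3464 at 0.5 µM and 234, 127 and 433 at 0.25 µM. Number 3 was high at both concentrations, which made the groups overlap. The log2 change was 2.09 ± 0.32 (limma, adjusted p = 0.00362), and a second probe set gave 2.09. The interferon-stimulated list as a whole had a median of 0.02, with 1 of 29 measured genes past the threshold. That gene, Ifitm3, an antiviral membrane protein, fell to 424, 448 and 331 at 0.5 µM, against 812, 734 and 1534 at 0.25 µM. All 3 values were lower, at a log2 change of -1.26 ± 0.27 (limma, adjusted p = 0.0339; 1 of 6 fits, adjusted p up to 0.30). Its neighbour Ifitm1, chosen after its values were seen, read 414, 731 and 1087 at 0.5 µM and 454, 416 and 1066 at 0.25 µM, with a 95% interval from -0.09 to 0.55 log2 units. The enzymes Chst2 and Ust, which add sulfate to glycans, changed by 1.13 ± 0.16 (limma, adjusted p = 0.00278) and 1.32 ± 0.28 (limma, adjusted p = 0.0349). Cmah, which turns sialic acid into its glycolyl form, changed by 1.46 ± 0.32 (limma, adjusted p = 0.0362). All 3 of these glycan genes had separate groups, and Ust and Cmah each passed in 1 of the 6 fits (adjusted p up to 0.296 and 0.312). Pair 3 was farthest from 0 in both, with pairs at 0.97, 0.77 and 2.22 for Ust and 0.98, 0.79 and 2.60 for Cmah. Sytl2, a Rab27 effector of vesicle docking, changed by 1.40 ± 0.30 (limma, adjusted p = 0.0327; 2 of 6 fits, adjusted p up to 0.301). Gatm, the first enzyme of creatine synthesis, changed by -1.77 ± 0.36 (limma, adjusted p = 0.0247; 2 of 6 fits, adjusted p up to 0.219). The groups overlapped for both.

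Of the MYC network and the BET machinery, 1 gene passed, the Myc paralog Mycn. Myc read 4412, 4614 and 611 at 0.5 µM, against 5633, 5442 and 1438 at 0.25 µM. Number 3 was low in both groups, and the log2 change of -0.60 had a 95% interval from -1.03 to -0.18 before adjustment and an adjusted p of 0.179 in limma. All 29 measured MYC target and ribosome biogenesis genes lay below 0, against 8818 of 18193 genes overall. Their median was -0.42, and 0 of them passed. The pair medians were -0.29, -0.10 and -0.95, with number 3 farthest from 0. Mycn was 1 of 12 measured genes of the MYC and MAX network. It read 32.5, 25.8 and 9.80 at 0.5 µM, against 75.5, 102 and 63.8 at 0.25 µM, a log2 change of -1.35 ± 0.21 (limma, adjusted p = 0.00452) with no overlap. The call was lost without array 3 of the 0.25 µM group (adjusted p = 0.0619), and 2 other Mycn probe sets gave 0.27 and 0.22. Hexim1, an inhibitor of P-TEFb whose rise is a common readout of BET inhibition, read 1877, 1684 and 1675 at 0.5 µM, against 1510, 1443 and 802 at 0.25 µM. The groups did not overlap, and the log2 change of 0.53 had an adjusted p of 0.0553 in limma. Brd2 and Brd3 changed by 0.23 and -0.10, and Serpini1, another reported readout of BET inhibitors, by 0.06, none past the threshold. The list of BET and P-TEFb genes had 0 of 17 measured members past the threshold and a median of 0.08.

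**Figure D2:**
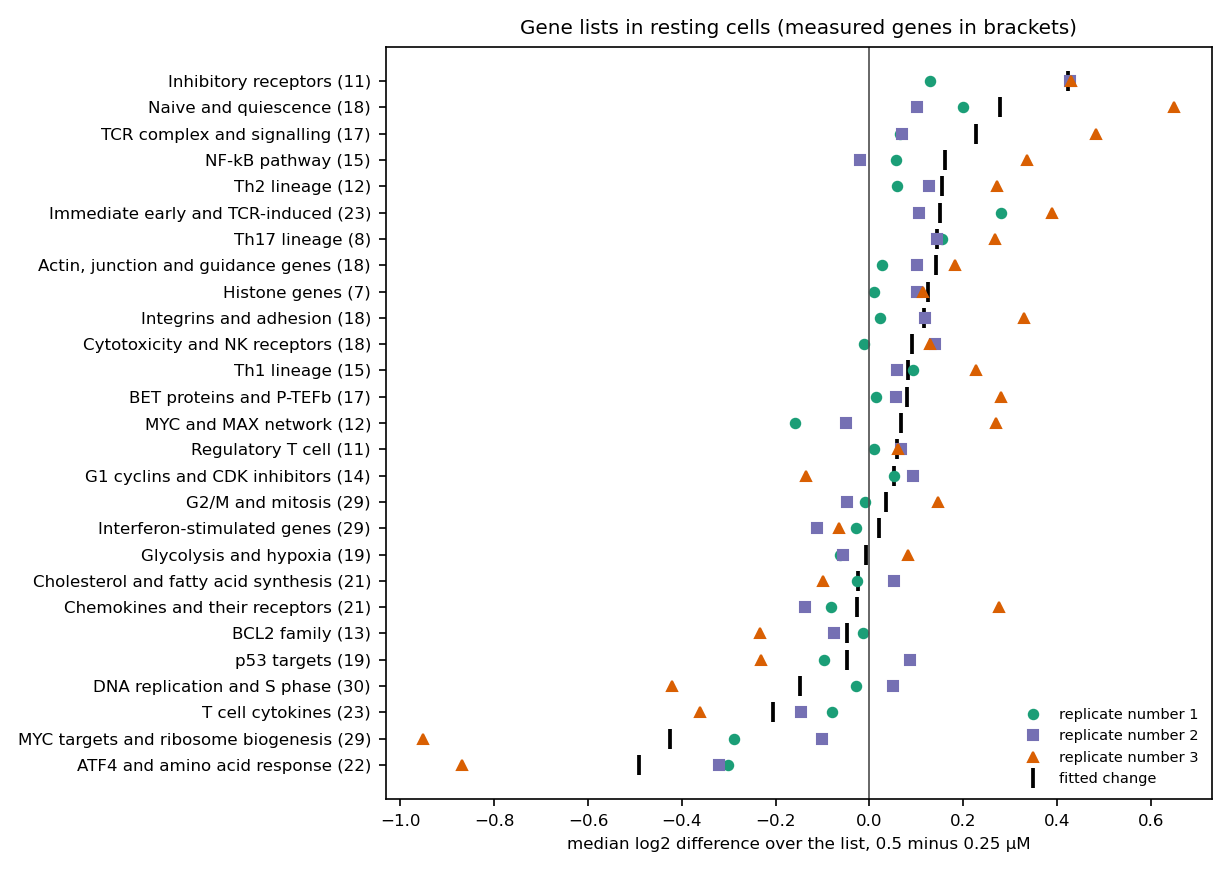
Median log2 difference, 0.5 minus 0.25 µM, over each gene list in resting cells; coloured symbols are the 3 pairs of equally numbered arrays, black ticks the fitted change, and brackets give the measured genes. The ATF4 list (-0.49) and the MYC target list (-0.42) lie lowest and the inhibitory receptors (0.42) highest, with pair 3 farthest from 0 for most lists.

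No gene passed on the lists for regulatory T cells, the T cell receptor complex, the NF-kB pathway, histones, DNA replication and S phase, mitosis, G1 cyclins, glycolysis, cholesterol and fatty acid synthesis, p53 targets or the BCL2 family. Their medians lay between -0.15 for DNA replication and 0.23 for the T cell receptor complex. The S phase median was -0.03 in pair 1, 0.05 in pair 2 and -0.42 in pair 3.

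The controls place these changes on the dose scale. Against the 6 control arrays, with which the dose step shares its treated arrays, 217 genes passed at 0.25 µM (1.19%) and 1627 at 0.5 µM (8.94%), while Control-768 against DMSO gave 0 (558 genes, 3.07%, had an unadjusted p under 0.05). Of the 59 genes higher at 0.5 than at 0.25 µM, 16 were already above the controls at 0.25 µM, 2 were below them and 41 had not passed. Of the 152 lower genes, 43 were already below the controls at 0.25 µM and 109 had not passed. Median log2 differences from the controls were 0.22 at 0.25 µM and 0.85 at 0.5 µM for the higher genes, and -0.32 and -1.23 for the lower genes.

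Both kinds of course occurred among the large changes. Shroom3 averaged 1254 ± 288 in the controls (SD, n = 6) and stood at -2.04 log2 units from them at 0.25 µM and at -4.62 at 0.5 µM. Cysltr1, with 2087 ± 280.5 in the controls, stood at -1.73 and -3.93, and Igfbp4, with 2773 ± 473, at -1.99 and -3.59. Lag3, with 274 ± 48.0 in the controls, stood at 1.31 and 2.73. These 4 genes had moved at the lower concentration and moved again at the higher one. Others were near the controls at 0.25 µM. Klf3 averaged 115 ± 27.7 in the controls and stood at 0.19 at 0.25 µM (95% interval -0.18 to 0.57) and 1.82 at 0.5 µM. Bcl6, with 178 ± 93.1, stood at -0.07 (-0.46 to 0.31) and 1.15. Atf3, with 537 ± 78.8, stood at -0.02 (-0.39 to 0.35) and -1.19, and Asns, with 2463 ± 819, at 0.31 (-0.41 to 1.03) and -1.44. For 27 of the 59 higher and 59 of the 152 lower genes, the whole 95% interval at 0.25 µM lay within 0.5 log2 units of the controls, as it did for 12994 of 18193 genes overall.

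**Figure D3:**
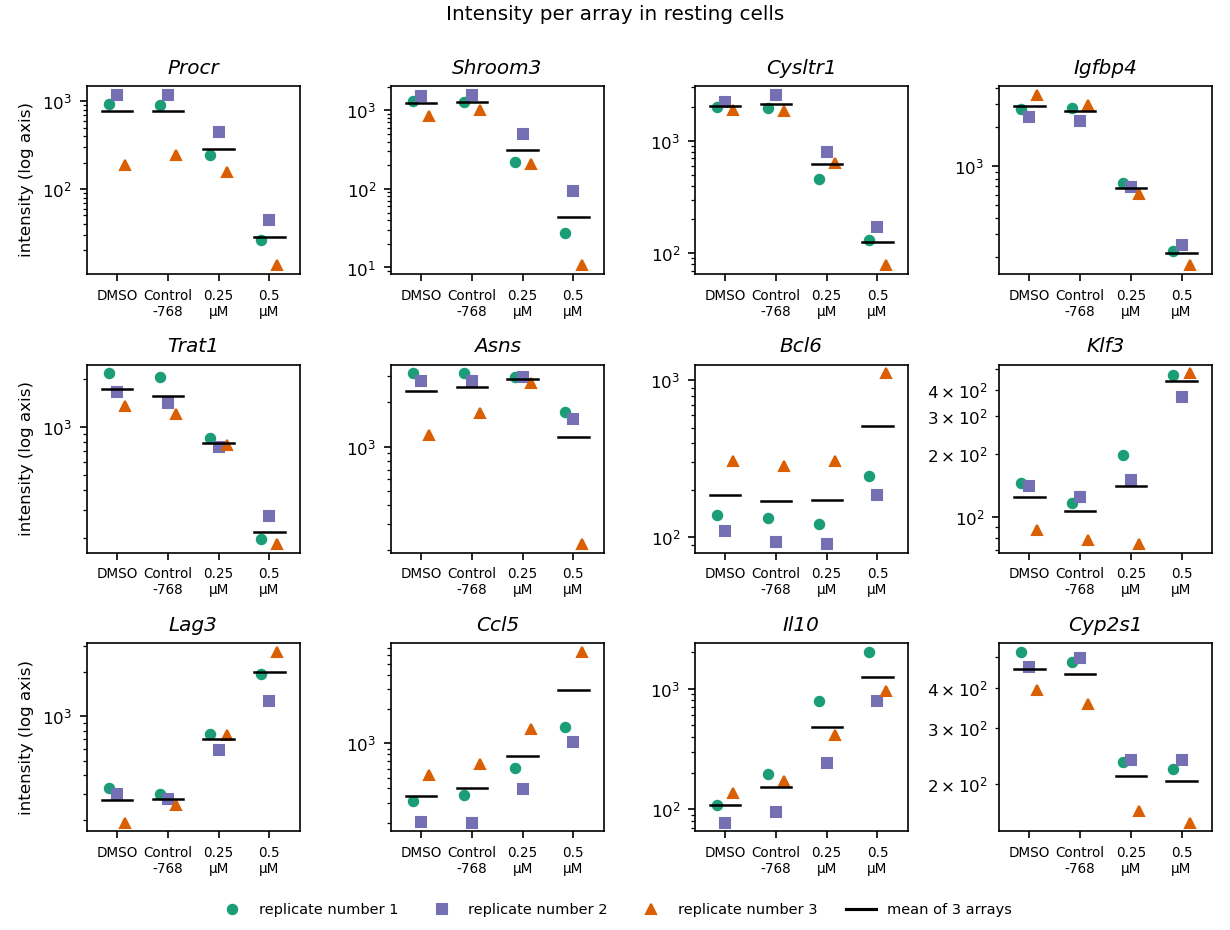
Intensity of 12 genes on each resting array (log axis), by DMSO, Control-768, 0.25 µM and 0.5 µM I-BET-762; symbols are replicate numbers and black lines means of 3 arrays. Shroom3, Cysltr1, Igfbp4, Trat1 and Procr fall at each step, and Cyp2s1 has a dose step of -0.06. In the fit, Bcl6, Klf3 and Asns passed against the controls at 0.5 µM and not at 0.25 µM. All 0.5 µM arrays lie above the control range for Klf3, but some lie within it for Bcl6 and Asns.

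Genes that respond to the compound can be chosen without the dose step, from the mean of both concentrations against both controls, a contrast whose estimate is orthogonal to it in this balanced design. Orthogonal estimates are uncorrelated only if the arrays of both concentrations are equally noisy. Both tests also use the same variance estimate for each gene, so the shares below are not fully independent of the choice. That contrast called 5.68% of the genes. It gave 393 higher genes (2.16%), of which 38 also rose and 0 fell between the concentrations (9.67% called), and 348 of the 393 had a dose step above 0. It gave 640 lower genes (3.52%), of which 122 also fell and 0 rose (19.1%), and 579 of them had a dose step below 0. The median dose step was 0.29 for the higher and -0.35 for the lower genes. With quantile normalization the same contrast split into 615 higher and 618 lower genes. For 153 of the 393 (38.9%) and 190 of the 640 genes (29.7%), the 95% interval of the dose step lay within 0.5 log2 units of 0, against 9824 of all genes (54.0%). The median mean response was 0.44 for the higher and -0.56 for the lower genes, close to that limit, so these counts do not show that a gene had reached its final level at 0.25 µM. With a mean response of at least 1 log2 unit there were 3 such genes, named after their values were seen. Cyp2s1, a cytochrome P450, read 223, 238 and 151 at 0.5 µM and 234, 237 and 164 at 0.25 µM, against 451 ± 63.0 in the controls (SD, n = 6). The dose step of Cyp2s1 was -0.06 with a 95% interval from -0.24 to 0.13. Itga7, the α7 integrin chain, had a dose step of 0.05 (-0.37 to 0.48) after a mean response of -1.60, and Cpm, a membrane carboxypeptidase, one of -0.11 (-0.48 to 0.27) after -1.03.

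Of the 10 largest rises in that contrast, Il10, Ifi209, Lag3 and Ccl5 also passed between the concentrations. Pls1, an actin-bundling plastin, and Fgf13, an intracellular member of the fibroblast growth factor family, had dose steps of 0.34 and 0.41, with 95% intervals from -0.20 to 0.88 and from -0.29 to 1.11. Egr1, an early growth response factor, and Gpr160, an orphan receptor, stood at 1.23 and 0.87 (limma, adjusted p = 0.161 and 0.0892). Of the 10 largest falls, 9 passed, and Acsl6, an acyl-CoA synthetase, did not (-1.18; limma, adjusted p = 0.0657). Itpripl2, of the inositol trisphosphate receptor-interacting protein family, passed at -1.23 ± 0.18 (limma, adjusted p = 0.00288), reading 6.62, 27.3 and 26.9 at 0.5 µM against 44.6, 81.6 and 76.3 at 0.25 µM without overlap.

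The same dose step in activated cells gave 36 genes past the threshold (0.198%), 7 higher (0.0385%) and 29 lower (0.159%). Of the 59 genes that rose in resting cells, 54 had a positive change in activated cells (91.5%), against 49.4% of all genes, and the median was 0.35. Of the 152 that fell, 139 had a negative change, and the median was -0.41. In these 2 sets, 4 and 20 genes passed in activated cells too, and 0 passed in the opposite direction. Resting and activated arrays of 1 number may share their primed culture, which the labels do not settle, so the states may not be independent.

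Trat1 had nearly the same change in both states, -1.81 in resting and -1.74 in activated cells, and so did Cysltr1, at -2.19 and -1.98. Shroom3 stood at -2.58 in resting and -2.19 in activated cells, and Procr at -2.70 and -2.12. All 4 passed in activated cells (limma, adjusted p between 0.00272 and 0.0235). Bcl6 stood at 1.22 in resting and -0.10 in activated cells, Enah at -2.41 and -0.77, and Lta at -1.66 and -0.37. A test of the difference between the states found 0 genes past the threshold, with 1355 at an unadjusted p under 0.05 (7.45%). The smallest limma adjusted p of this test among the named genes was 0.629, and a median 95% interval of 0.46 log2 units to either side limits what that test can detect. A difference in response between resting and activated cells was therefore not shown for Bcl6, Enah or Lta.

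**Figure D4:**
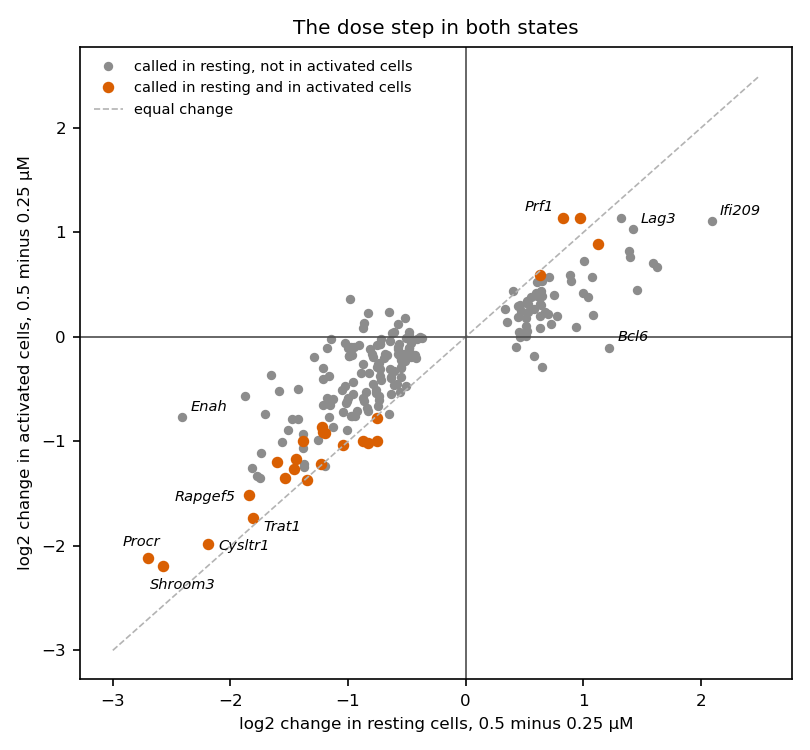
Log2 change, 0.5 minus 0.25 µM I-BET-762, in resting cells (x axis) against activated cells (y axis) for the 211 genes past the threshold in resting cells; orange points passed in both states, and the dashed line marks equal change. Most points lie in the lower left and upper right fields, with 54 of the 59 higher and 139 of the 152 lower genes on the same side of 0 in both states.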

How the data were processed

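RNA of 24 mouse T cell samples was hybridised to Affymetrix arrays after 2 rounds of amplification and biotin labelling, per the labels' protocols. The authors deposited a linear intensity for each of 45101 probe sets. Their summary, normalization and any centring were not stated in the sources used here. No depth applies to arrays, and their number limits the precision: the median 95% interval of a dose step reached 0.33 log2 units to either side.

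Of the probe sets, 34945 had 1 gene in the platform table, 932 had several and 9160 had none (64 controls were left out). Of the former, 34741 matched the RefSeq gene table (GRCm38.p6) by gene number. Each gene was represented by its brightest such probe set, by mean over all arrays. Values were taken as log2(intensity + 16). All 24 arrays entered a single linear model in limma 3.58.1 (R 4.3.3) with 8 group means and the replicate number as a block within each state, which left 12 residual degrees of freedom and added 3.35 from the prior. Tests were two-sided, adjusted by Benjamini-Hochberg over 18193 genes and called at an adjusted p under 0.05. The calculation was tested on simulated data. The replicate block was set by the rule of the comparison, and whether the numbers pair arrays was checked. Equally numbered arrays deviated together from their group means: the lowest of 18 correlations was 0.197 in resting and 0.155 in activated cells.

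Named genes are the 15 largest rises and falls past the threshold, the 10 largest of each in the contrast of both concentrations with both controls, 16 genes of prior interest, and up to 3 members of each of 34 lists. The members and lists were chosen with earlier results of these data known. Alternatives changed the block, the arrays fitted, the added constant, the intensity filter, the normalization, the probe sets and the variance model, and left out arrays.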

Additional observations from a re-analysis of the deposited data

How the results depend on the processing

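The replicate block pairs equally numbered arrays, by the rule of the comparison, and the labels do not say what a number stands for. Leaving the block out reduced the resting dose step to 12 called genes, all among the 211, and the activated step to 2. The pooled contrast went to 337, 0.5 µM against controls to 491 and 0.25 µM against controls to 24. With resting arrays alone the dose step gave 86 genes and 0.25 µM against controls 124. Without the block as well, the counts were 3 for the dose step, 263 pooled, 376 at 0.5 µM and 17 at 0.25 µM. With the 6 compared arrays alone, 2 residual degrees of freedom remained and 0 genes passed (1249 at an unadjusted p under 0.05). An added constant of 1 gave 139 (activated 16) and of 64 gave 326, and a mean intensity of at least 50 gave 393 (activated 58). Array weights gave 580 for the dose step, 120 activated, 2682 pooled, 3000 at 0.5 µM, 814 at 0.25 µM and 3 for Control-768 against DMSO. Leaving out arrays gave between 5 and 444 genes for the dose step, 1 and 10 activated, 288 and 1535 pooled, 421 and 1806 at 0.5 µM, and 11 and 284 at 0.25 µM. Of the 116 genes called without all arrays of number 3, 73 were among the 211, while 5 and 15 were called without number 1 or 2. The difference between the states gave 0 genes under each of the 12 alternatives run for it. Signs turned for 2 named genes, both when multi-match probe sets were left out: Bcat1 (0.13) and Prf1 (-0.13). Of 61 named genes called, quantile normalization kept 58, a constant of 64 kept 58 and the trended prior kept 61. Between 29.1% and 30.8% of probe sets lie under an intensity of 16, where changes are compressed. The cause of these shifts was not tested.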

Other observations

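The genes below also passed the threshold and were chosen after their values were seen, so they give no direction for a group. On the actin, junction and guidance list, of which they are not members, 3 genes rose, 1 fell and the median was 0.14. Jcad, a junctional protein, read 97.0, 169.5 and 45.6 at 0.5 µM and 256, 343 and 144 at 0.25 µM, a log2 change of -1.20 ± 0.14 (limma, adjusted p = 0.000658). Myo10, an unconventional myosin of filopodia, changed by -1.21 ± 0.20 (limma, adjusted p = 0.00636), and Spire1, an actin nucleator, by -0.91 ± 0.14 (limma, adjusted p = 0.00362). Each pair was lower at 0.5 µM for all 3 genes, and the groups were separate for Myo10. Jcad and Spire1 passed in each of the 6 fits without a compared array, and Myo10 in 5 (adjusted p = 0.0553 without array 1 of the 0.5 µM group). Dpp4, the surface peptidase CD26, read 466, 455 and 271 at 0.5 µM, against 791, 769.9 and 562 at 0.25 µM. S100a4, a calcium-binding protein of motile cells, read 2870, 3296 and 4682 at 0.5 µM and 5097, 4970 and 8434 at 0.25 µM. Neither of these overlapped, with log2 changes of -0.83 and -0.75 (limma, adjusted p = 0.0362 and 0.0122); they passed in 1 and 2 of the 6 fits (adjusted p up to 0.193 and 0.108). Other Dpp4 probe sets gave -0.74, -0.14 and 0.03.

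Some genes lay near the controls at 0.25 µM and moved at 0.5 µM. Hacd1, an enzyme of very long-chain fatty acid synthesis, differed from the controls by 0.03 at 0.25 µM and by -0.93 at 0.5 µM, with a dose step of -0.96 ± 0.15 (limma, adjusted p = 0.00371; 6 of 6 fits). Gstt1, a glutathione transferase, stood at 0.02 and -1.35, with a dose step of -1.37 ± 0.25 (limma, adjusted p = 0.0142; 3 of 6 fits, adjusted p up to 0.130). S1pr4, a sphingosine-phosphate receptor of lymphocytes, stood at -0.06 and 0.67, with a dose step of 0.73 ± 0.16 (limma, adjusted p = 0.0362; 1 of 6 fits, adjusted p up to 0.305). Socs3, an inhibitor of cytokine receptor signalling, read 2745, 2167 and 2846 at 0.5 µM, against 1524, 1435 and 1528 at 0.25 µM, a log2 change of 0.77 ± 0.16 (limma, adjusted p = 0.0296; 1 of 6 fits, adjusted p up to 0.164). Nfatc1, a factor activated by calcineurin, changed by 0.61 ± 0.12 (limma, adjusted p = 0.019; 2 of 6 fits, adjusted p up to 0.191).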
